A study of Rattus norvegicus with 6 samples.

Results

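The miR-202 hairpin gives 2 mature miRNAs, rno-miR-202-5p and rno-miR-202-3p, and both were measured in the testes of diabetic and normal rats. The members were taken by name from the deposited miRNA table and were 2 of its 721 entries, of which 539 are known miRNAs. Small RNA was sequenced in 6 libraries from testicular tissue of Sprague-Dawley rats, 3 diabetic and 3 normal, and no source says that each library came from a single rat. The diabetic rats had streptozotocin (STZ)-induced diabetes and were sampled at week 8, and by the study's methods they had first been fed a high-fat diet and then given a single STZ injection. The normal rats carried only that label, and by the study's methods controls received citrate buffer. The study describes its rats as adult males but names a different data record for its sequencing, so these details of the animals come from its methods and not from the labels. Neither source says whether the normal rats were fed the high-fat diet. STZ destroys insulin-producing cells, and whole testis was used, so each value mixes germ cells, Sertoli cells, Leydig cells, vessels and blood.

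A hairpin precursor is cut into a duplex, and each strand, or arm, of that duplex can be loaded into a silencing complex. The loaded arm then pairs with target mRNAs mainly through its seed, bases 2 to 8. miR-202 is known as a miRNA of the gonads. In the mammalian testis it is known from Sertoli cells, the somatic nurse cells of the seminiferous tubule, and from early germ cells. The whole-tissue libraries cannot assign it to either cell type, and a smaller number of cells of a type cannot be told apart from less RNA per cell.

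In the RefSeq annotation of assembly GRCr8 the gene Mir202 lies on the minus strand at chr1:204184345-204184416, within the span of the long non-coding RNA gene LOC120099956. The expression table itself carries no coordinates. The hairpin and its arms are shown because the results turn on the balance between the arms. Capitals mark the arms in the hairpin and the seed in each mature miRNA, all written 5′ to 3′ as RefSeq gives them.
Mir202 hairpin: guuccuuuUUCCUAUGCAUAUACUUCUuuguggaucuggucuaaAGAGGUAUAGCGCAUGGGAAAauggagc
rno-miR-202-5p: uUCCUAUGcauauacuucu
rno-miR-202-3p: aGAGGUAUagcgcaugggaaa

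The arms span 19 and 21 bases and are separated by 17 bases. In the minimum free energy fold of the 72-base hairpin, at -35.4 kcal/mol, 18 of the 19 bases of the 5p arm paired with the 3p arm. Mature sequences were found for 492 of the 539 known miRNAs, and 0 of the others shared the full seed of either arm. Across all 692 other rat mature sequences in that annotation, the closest to each arm still differed by 8 single-base edits.

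Library depth, counted over all listed miRNAs, was between 305476 and 549446 reads. Levels are given as CPM: each library is scaled to one common total of listed miRNA reads, so values are relative to all miRNAs of the library. Both arms were above the filter on low values (at least 1 CPM in 3 libraries) and never fell under 10 reads in a library, as was the case for 257 miRNAs in all. Intervals on single libraries are exact 95% limits that cover counting error only.

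rno-miR-202-5p, the abundant arm, was 1.23-fold higher in the diabetic testes, and its groups did not overlap, but the difference did not pass the adjusted threshold. It stood at 3977, 4322 and 4020 CPM in diabetic replicates 1, 2 and 3, from 1215, 1608 and 2209 reads. In normal replicates 1, 2 and 3 it stood at 3103, 3575 and 3341 CPM, from 1369, 1761 and 1771 reads. Every diabetic library was above every normal library, with 3575 CPM as the highest normal and 3977 CPM as the lowest diabetic value. The counting intervals of these neighbouring libraries, 3410 to 3746 CPM and 3757 to 4207 CPM, did not touch either.

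rno-miR-202-5p averaged 4107 ± 188 CPM over the diabetic and 3340 ± 236 CPM over the normal group (mean ± SD, n = 3). The log2 change, diabetic minus normal on the log2(CPM + 1) scale, was 0.30, with 0.10 as its standard error and a 95% interval of 0.09 to 0.51 (limma adjusted p = 0.348). By exact permutation p was 0.1, which is the lowest value that 3 against 3 libraries allow. Of the 578 miRNAs tested, 0 (0%) had an adjusted p under 0.05 in limma, 51 had an unadjusted p under 0.05, and edgeR and DESeq2 on recovered reads called 2 and 1, neither arm among them. rno-miR-202-5p ranked 10 by p-value and was one of 32 miRNAs (5.54%) that were higher in diabetes at an unadjusted p under 0.05. It was also one of 46 (7.96%) with every diabetic library above every normal one. Of those 46, 27 were among the 257 miRNAs that never fell under 10 reads, rno-miR-202-5p included.

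Of the 257 miRNAs that never fell under 10 reads, 31, rno-miR-202-5p included, were higher in diabetes by at least its log2 change. The median log2 change was 0.04 in these and 0.0046 over all 578. With upper-quartile factors, which moved the median of all miRNAs to -0.10, the log2 change of rno-miR-202-5p was 0.19 and its groups overlapped, from 3660 to 4195 against 3228 to 3723 on the CPM scale. Relative to that median it was 0.29, against 0.30 with library totals. These values must nearly match, because scaling shifts every miRNA of a library alike, so their likeness is no separate support.

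**Figure D1:**
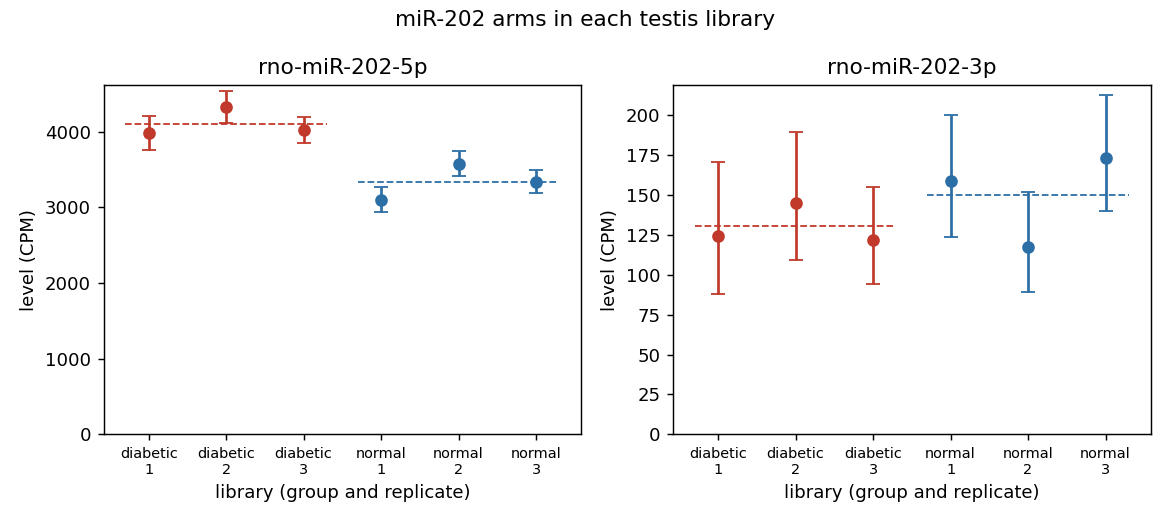
Level in CPM of each miR-202 arm in the 6 libraries, with exact 95% counting intervals as bars and group means as dashed lines. The diabetic libraries lie at 3977 CPM or above and the normal ones at 3575 CPM or below for rno-miR-202-5p, while the groups overlap for rno-miR-202-3p.

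rno-miR-202-3p, the scarce arm, had a lower mean in the diabetic testes, but by less than the spread between normal replicates. It stood at 124, 145.1 and 122 CPM in diabetic replicates 1, 2 and 3, from 38, 54 and 67 reads. In normal replicates 1, 2 and 3 it stood at 159, 118 and 174 CPM, from 70, 58 and 92 reads. Normal replicate 2 was the lowest of all libraries, and the other normal libraries were the highest, so the groups overlapped.

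rno-miR-202-3p averaged 130 ± 12.7 CPM over the diabetic and 149.97 ± 28.9 CPM over the normal group (mean ± SD, n = 3; exact permutation p = 0.4). Its log2 change was -0.18, with 0.23 as its standard error (limma adjusted p = 0.808). The 95% interval of -0.67 to 0.30 reached from a 0.629-fold to a 1.23-fold level. The value rested on single normal libraries: the log2 change was -0.35 without normal replicate 2 and -0.07 without normal replicate 3. Upper-quartile factors gave -0.29.

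**Figure D2:**
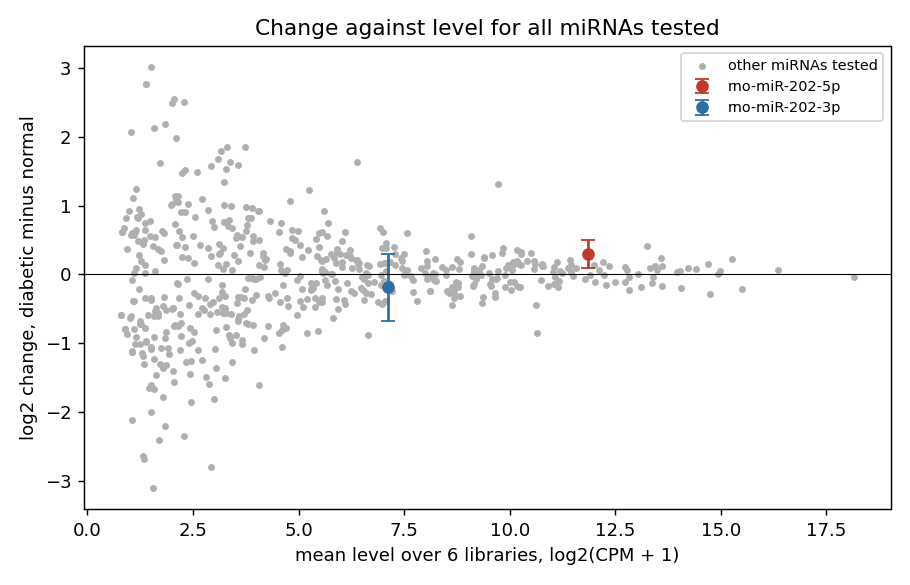
Log2 change (diabetic minus normal) against mean log2(CPM + 1) over the 6 libraries for the 578 miRNAs tested, with the miR-202 arms in colour and their 95% intervals from limma as bars. The 5p arm lies at 0.30 with an interval above 0, and the 3p arm at -0.18 with an interval that includes 0.

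Taken as one product of the hairpin, the summed arms had to follow the 5p arm, because the 3p arm supplied only 2.94% to 4.94% of hairpin reads. The sum is therefore no evidence separate from the 5p arm. Their level was 4102, 4467 and 4142 CPM in the diabetic and 3262, 3693 and 3514 CPM in the normal libraries. The groups did not overlap, and the log2 change of the sum was 0.28 (exact permutation p = 0.1). With upper-quartile factors it was 0.17 (exact permutation p = 0.2), and the groups overlapped, from 3771 to 4336 against 3393 to 3845 on the CPM scale.

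The ratio of the arms within a library does not depend on the library total, and so it compares the arms directly. There were 32.0, 29.8 and 33.0 5p reads per 3p read in diabetic replicates 1, 2 and 3. In normal replicates 1, 2 and 3 there were 19.6, 30.4 and 19.3. The diabetic libraries lay close together, whereas normal replicate 2 lay inside the diabetic range and apart from the other normal libraries. The 3p arm supplied 2.94% to 3.25% of hairpin reads in the diabetic libraries. It supplied 4.86%, 3.19% and 4.94% in the normal libraries.

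The counting intervals of the ratio were wide because the 3p arm had few reads. Those of normal replicates 1 and 3 were 15.4 to 25.2 and 15.6 to 24.0, and that of normal replicate 2 was 23.4 to 40.2. The diabetic intervals began at 23.2, 22.7 and 25.9. The intervals of the diabetic libraries and of normal replicates 1 and 3 thus met at their ends, except that the interval of diabetic replicate 3 began above both.

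The ratio averaged 31.6 ± 1.63 over the diabetic and 23.1 ± 6.34 over the normal group (mean ± SD, n = 3). Its log2 change was 0.48, with 0.23 as its standard error and a 95% interval of -0.03 to 0.99 (limma adjusted p = 0.777 over 127 hairpins; exact permutation p = 0.2). Without normal replicate 2 it was 0.70 (limma adjusted p = 0.338). A different response of the arms was therefore not shown at this depth. Over the 4 permutation tests made on miR-202 (each arm, their sum and their ratio), the Benjamini-Hochberg adjusted values ran from 0.2 to 0.4.

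**Figure D3:**
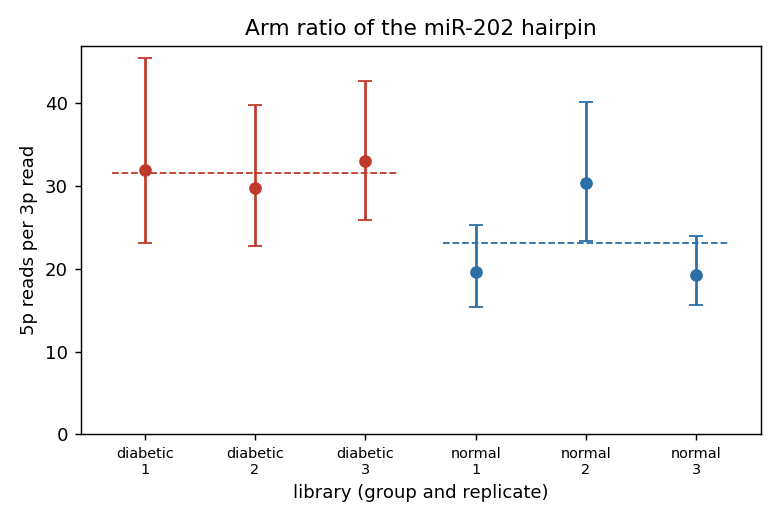
5p reads per 3p read of the miR-202 hairpin in the 6 libraries, with exact 95% counting intervals as bars and group means as dashed lines. Normal replicate 2, at 30.4, lies among the diabetic libraries, and normal replicates 1 and 3 lie at 19.6 and 19.3.

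The arm ratio was set beside that of every hairpin with both arms named and measured. Of the 127, 74 gave more 5p and 53 more 3p reads, and miR-202 was the 36th most 5p-sided. Its mean ratio of 26.5 (from the mean log2 ratio) stood between that of miR-340 (27.6) and that of miR-471 (26.2). Both neighbours ranged over the libraries much as miR-202 did, from 24.3 to 33.98 for miR-340 and from 20.8 to 34.4 for miR-471, so the order of these hairpins is not resolved.

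A shift of the arm ratio had an unadjusted p under 0.05 for 6 of the 127 hairpins (4.72%) and an adjusted p under 0.05 for 1 (0.787%). miR-202 was in neither group and ranked 8 by p-value. The called hairpin was let-7g, whose 3p arm had 8 reads over the 6 libraries. The next by p-value were miR-146a and miR-379, with 13 and 35 reads in their 3p arms (adjusted p = 0.272 and 0.773 in limma). Of the 50 hairpins whose arms both stayed at 10 reads or more, 1, miR-202 itself, was shifted towards 5p by at least 0.48. In either direction 6 of the 50, miR-202 included, were shifted by that much.

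By level, rno-miR-202-5p ranked 36 to 38 of 721 entries in the diabetic and 40 in every normal library, and held 0.310% to 0.432% of listed reads. Among known miRNAs it was the 39th by mean level. The neighbours were miR-145-5p (3585 to 4177 CPM), a miRNA of contractile cells, and let-7b-5p (3406 to 3898 CPM), and both ranges overlapped that of rno-miR-202-5p. rno-miR-202-3p was the 161st, between miR-322-3p (110 to 161 CPM) and miR-28-5p (94.3 to 164 CPM), which it also overlapped.

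The replicates of each group varied by more than counting noise for the 5p arm. Its chi-square per degree of freedom was 3.22 within the diabetic and 7.76 within the normal group, where counting alone gives about 1. For the 3p arm the values were 0.503 and 2.79. The diabetic libraries thus differed in the 3p arm by no more than its 38 to 67 reads allow by counting.

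The 3p arm is related by seed to let-7, the family of differentiation miRNAs. Bases 2 to 7 of rno-miR-202-3p were the same as in 9 miRNAs of the table, 8 let-7 5p arms and miR-98-5p. In each of these the seed differed from that of miR-202-3p by one substitution, G8U, with the let-7 base first, positions counted from 1 at the 5′ end, and the miR-202-3p base last. The sequences below show this for the most abundant let-7 of the table and for the let-7 that shares the most bases with the 3p arm, with seeds in capitals. Position by position over 21 bases, they shared 7 and 9 bases with rno-miR-202-3p.
rno-let-7g-5p: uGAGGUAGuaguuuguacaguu
rno-let-7d-5p: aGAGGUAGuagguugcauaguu
rno-miR-202-3p: aGAGGUAUagcgcaugggaaa

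The let-7 and miR-98 miRNAs were far more abundant than the arm that resembles them. Summed, they averaged 82314 ± 3281 CPM over the diabetic and 78248 ± 6851 CPM over the normal group (mean ± SD, n = 3), over all libraries 573 times that of rno-miR-202-3p. The scarcest, miR-98-5p, ranged from 230 to 326 CPM and the most abundant, let-7g-5p, from 23283 to 29449 CPM. Of the 9, 5 were higher and 4 lower in diabetes with a median log2 change of 0.0016, and 0 had an adjusted p under 0.05 in limma (0 also at an unadjusted p under 0.05). rno-miR-202-3p lay below every one of them in every library.

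**Figure D4:**
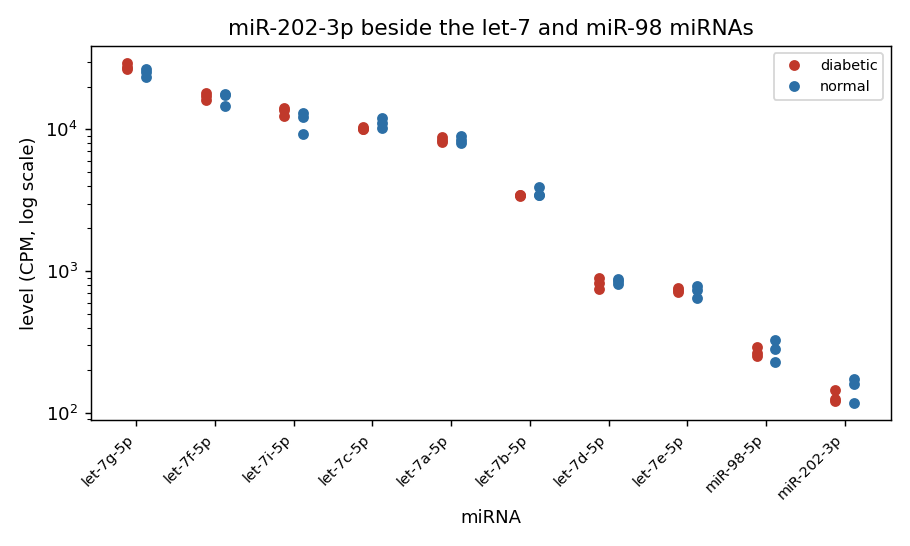
Level in CPM (log scale) of rno-miR-202-3p and of the 9 let-7 and miR-98 miRNAs that share its bases 2 to 7, with one point per library. rno-miR-202-3p is the lowest, at 118 to 174 CPM, and miR-98-5p is next at 230 to 326 CPM.

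The patterns most like each arm over the 6 libraries were sought among the other 256 miRNAs that never fell under 10 reads. For rno-miR-202-5p they were miR-26b-5p, miR-296-5p and miR-221-3p, the last a miRNA of undifferentiated spermatogonia, with Pearson r of 0.94, 0.92 and 0.91 on log2(CPM + 1). Each of the 3 was also higher in all diabetic than in all normal libraries, for example miR-26b-5p at 1431, 1349 and 1354 against 993, 1182 and 1120 CPM. For rno-miR-202-3p they were miR-34c-5p, miR-30b-5p and miR-20a-5p, with r of 0.93, 0.89 and 0.89. miR-34c-5p, a miRNA of meiotic and later germ cells, was lowest in normal replicate 2 (268466 CPM) and highest in normal replicate 3 (316725 CPM), as was rno-miR-202-3p. Between the arms themselves r was -0.53. These coefficients are descriptive: the points share their libraries and scaling, and the patterns were picked for their likeness.

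The level of rno-miR-202-5p was also set against miRNAs of other testis cells, chosen by name. Per 1000 reads of the miR-34b, miR-34c and miR-449 list of meiotic and later germ cells there were 12.02, 12.94 and 12.89 reads of rno-miR-202-5p in the diabetic libraries. In the normal libraries there were 9.10, 11.6 and 9.38, so these groups did not overlap. Per 1000 reads of the spermatogonial list, miR-221 and miR-222, there were 2574, 2455 and 2578 against 2305, 2664 and 2643, which overlapped. Against the contractile list, miR-143 and miR-145, there were 44.5, 50.3 and 41.9 against 36.9, 36.7 and 42.1, which overlapped through diabetic replicate 3 and normal replicate 3. Relative to the later germ cell list, rno-miR-202-5p stood higher in every diabetic library, and relative to the spermatogonial and contractile lists the groups overlapped. They also overlapped relative to the endothelial list, at 292 to 369 against 322 to 386 per 1000. They did not overlap relative to the blood and immune list (3761 to 6067 against 3151 to 3510) or to miR-122-5p (2900 to 4298 against 1114 to 1944). Because rno-miR-202-5p alone already separated the groups in CPM, separation in such ratios is no separate support for its change. miR-122-5p was itself lower in every diabetic library, which raises any ratio to it there. How many other miRNAs would separate in these ratios was not counted.

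The lists' own levels are given beside this, and their part in the miR-202 values was not tested. The summed later germ cell list ranged from 311960 to 333905 CPM in diabetic and from 307045 to 356042 CPM in normal libraries, with 2 of 7 tested members higher. All 3 tested members of the spermatogonial list had a higher mean, and its sum did not overlap, at 1545 to 1760 against 1264 to 1346 CPM. Most of that sum was miR-221-3p, at 1258 to 1521 against 1087 to 1147 CPM. miR-221-5p and miR-222-3p each overlapped between the groups. Among all 578 miRNAs tested, 46 (7.96%) were higher in diabetes without overlap. The 2 arms of miR-126a, a miRNA of endothelium, also had a higher mean, with a sum of 11722 to 13783 against 8662 to 11086 CPM. Most of that sum was the 3p arm of miR-126a, and its 5p arm overlapped between the groups. The contractile list overlapped, at 85959 to 96015 against 79267 to 97409 CPM, with 2 of 4 members higher. The blood and immune list overlapped too, at 712 to 1057 against 884 to 1070 CPM, with 3 of 9 members higher. miR-122-5p, a miRNA of liver, was lower at 936 to 1372 against 1839 to 2786 CPM. No member was at 0 in all libraries, although both arms of miR-449c, miR-222-5p and miR-223-5p stayed at or under 3 reads in each, and 0 members of any list had an adjusted p under 0.05 in limma as fitted here. Under other settings 1 list member did, miR-122-5p, which limma called with upper-quartile or TMM factors, with no filter, with at least 10 reads required throughout and with the replicate block, and which edgeR and DESeq2 called on recovered reads.

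**Figure D5:**
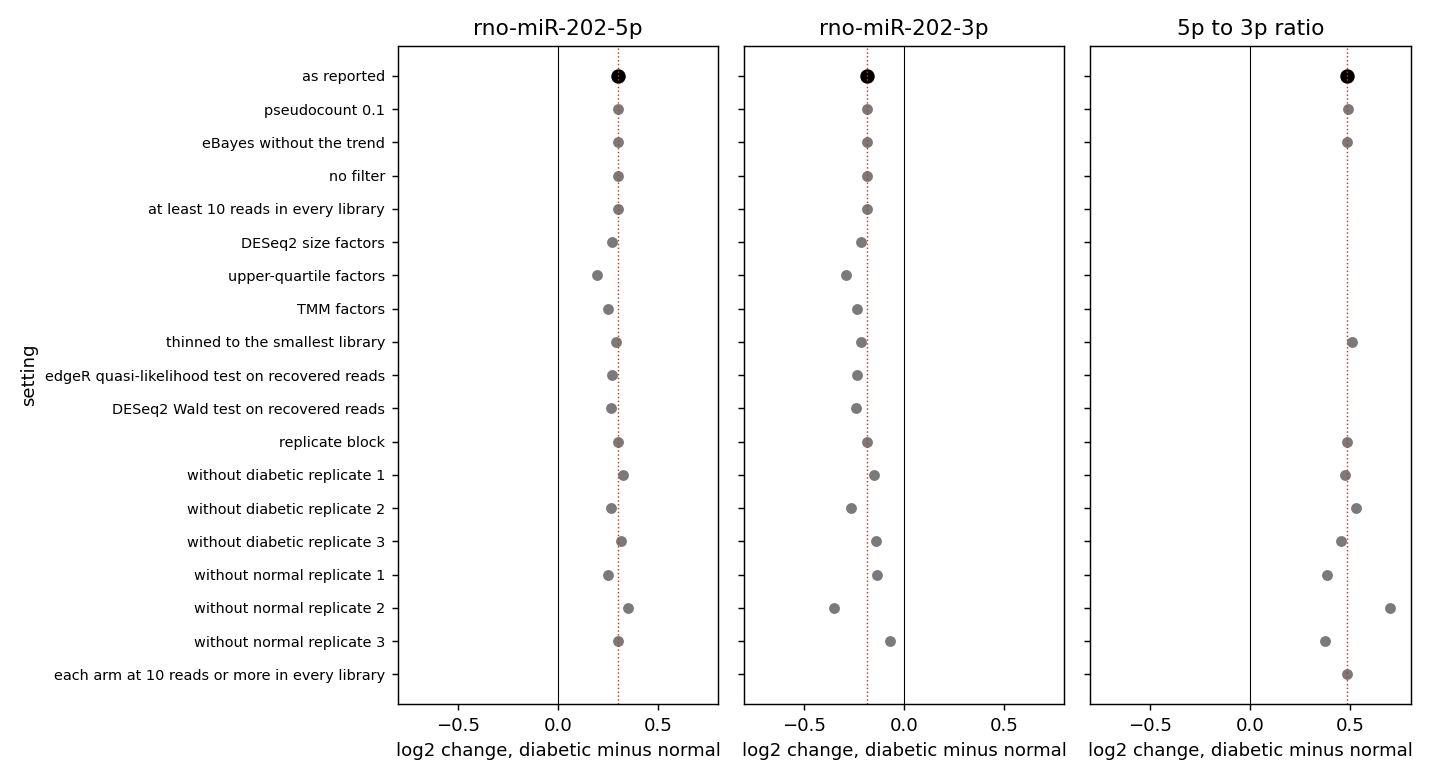
Log2 change (diabetic minus normal) of each miR-202 arm and of the 5p to 3p ratio as reported (black, dotted line) and under each other setting (grey); settings without a point were not run for that value. The 5p arm stays above 0, from 0.19 to 0.35, the 3p arm below 0, from -0.35 to -0.07, and the ratio above 0, from 0.37 to 0.70.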

How the data were processed

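The authors sequenced single-end small RNA reads, removed adaptors, counted small RNAs, annotated known miRNAs with miRBase and expressed them as CPM, as deposited (rounded to 1 decimal, under column headings that say TPM). The submitters' processing notes name Bowtie 0.12.2, HISAT2 2.0, StringTie 1.3.0 and the mouse build mm8 with no role given. The miRBase release and the sharing of multi-mapped reads are not given in the sources used here. The labels' extraction text describes a poly(A) library, and the small RNA description was followed.

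Whole reads were recovered by seeking library totals that made every value a whole number of reads within rounding. The smallest such total to which the recovered reads also closely summed was taken. Only totals with every value whole were eligible, so the 100% of whole values in each library is no check of the recovery. The main test was limma 3.58.1 in R 4.3.3 (lmFit, eBayes with trend, two-sided, Benjamini-Hochberg) on log2(CPM + 1), over all miRNAs that reached 1 CPM in 3 libraries or more. Arm ratios were fitted likewise over hairpins with both arms passing. Single values were compared by exact two-sided permutation tests. edgeR 4.0.16 and DESeq2 1.42.0 on recovered reads were alternatives, besides other pseudocounts, filters, scalings, thinning, a replicate block and leaving out libraries. The hairpin was folded with RNAfold 2.7.2. The limma and edgeR fits were run on simulated reads with changes much larger than those of miR-202. That run does not speak to changes of the size reported here.

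Members and lists were chosen with earlier results of these data known. Other miRNAs were named by rule: neighbours in level and in arm ratio, the 3 smallest p-values of arm ratio, the 3 most similar patterns, shared seeds and the cell lists. Nothing states more on the animals than that the libraries are separate samples, so p-values set group differences against the spread between these samples. In limma the spread of each miRNA is also drawn towards a trend fitted over all miRNAs. For rno-miR-202-5p the unadjusted limma p was 0.0076 with this trend and 0.106 without it.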

Additional observations from a re-analysis of the deposited data

How the results depend on the processing

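rno-miR-202-5p, rno-miR-202-3p, their sum and their ratio kept their direction in the 17, 17, 11 and 11 alternatives run for them. These include eBayes without the trend, other filters and the replicate block, which act on the p-value alone and cannot move the log2 change. No adjusted p of an arm or of the ratio went under 0.05, and the sum, tested by exact permutation alone, has none. The adjusted p ran from 0.302 to 0.803 for the 5p arm, from 0.733 to 0.976 for the 3p arm and from 0.338 to 0.865 for the ratio. The unadjusted p of the 5p arm was under 0.05 in 15 of 17 alternatives, the exceptions being upper-quartile factors and eBayes without the trend. Leaving out one replicate gave log2 changes of 0.25 to 0.35 for the 5p arm, -0.35 to -0.07 for the 3p arm, 0.37 to 0.70 for the ratio and 0.23 to 0.32 for the sum.

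Where 0 miRNAs had an adjusted p under 0.05, eBayes without the trend called 8 and edgeR called 2. Dropping the filter, requiring 10 reads in each library, TMM or upper-quartile factors, the Wald test of DESeq2 and the replicate block each called 1. The count was 0 to 1 when one replicate was left out (1 without diabetic replicate 3). Neither miR-202 arm was among them in any of these. The 1 hairpin with a shifted arm ratio became 0 with each arm at 10 reads or more in every library, a filter that removes let-7g. The cause of the other changes was not tested.

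In the labels, same-numbered diabetic and normal libraries share only a number. Their deviations from their own group's mean correlated at -0.11, -0.07 and -0.06 for numbers 1, 2 and 3 (296 miRNAs). No shared deviation was thus seen, but such correlations cannot show whether the libraries were paired. The replicate block leaves the log2 changes as they were by construction. With it they were 0.30 for the 5p arm (limma adjusted p = 0.432), -0.18 for the 3p arm (0.865), 0.48 for the ratio (0.744) and 0.28 for the sum. Depth limits the 3p arm, and with it the ratio, to 38 to 92 reads per library.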
